A study of Mus musculus with 12 samples.

Results

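The comparison set the 4 libraries of cells with a mutated Alkbh5 gene as 1 group against the 2 wild-type (WT) libraries of the same experiment. The libraries measured N6-methyladenosine (m6A) by immunoprecipitation and sequencing of chromatin-associated RNA of E14TG2a cells, a mouse embryonic stem cell line grown with LIF and the inhibitors PD0325901 and CHIR99021. The 3 genotypes were WT, Alkbh5 KO (Alkbh5-/-) and Alkbh5 ΔcIDR, a deletion in Alkbh5 in a study of intrinsically disordered protein regions, each with 2 replicates. Of 12 samples in the series, the 6 described here were read as immunoprecipitated, and the tables give the ΔcIDR columns the name KI. Both KO columns are named KO6, so both may come from 1 line, and nothing in the labels says that replicates came from separate cultures. P-values therefore measure only the spread between these libraries. An interval or repeat locus was described as separated where all 4 mutant libraries lay above both WT libraries, or all 4 below both, after each library was centred on its median of log2 RPM, the reads of a feature per 1000000 reads of its table. There were 3723 separated intervals among 74299 m6A intervals in the interval table, and 23942 separated loci among 4929385 annotated repeat loci in the repeat table. These members were chosen by the very position that is described, so their differences from WT are a description and their number is the measurement.

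ALKBH5 is an enzyme that removes the methyl group of m6A from RNA, and METTL3 with METTL14 places it. Chromatin-associated RNA holds nascent transcripts, long non-coding RNAs and transcripts of transposable elements, and m6A on such RNA in mouse embryonic stem cells has been studied for its bearing on LINE-1 and endogenous retrovirus transcripts. An intrinsically disordered region is a stretch of protein without a fixed fold. Both mutants were compared with the same WT libraries, and the joint comparison asks where the loss of the protein and the loss of the region go with a signal on the same side of WT. Input libraries were not analysed here, so more m6A per RNA, more RNA and more gene copies cannot be told apart in any value below.

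Each library held 13234793 to 15145206 reads in intervals and 20922839 to 26267351 in repeat loci. An interval or locus was tested where its mean over the 6 libraries reached 1 RPM, which left 33372 intervals and 209543 repeat loci. KO and ΔcIDR were not alike: by limma with 1 mean per genotype, ΔcIDR differed from KO at an adjusted p of 0.05 or less in 9746 intervals (29.2%) and in 41537 repeat loci (19.8%). The tables name no genes, and no annotation of their GRCm39 assembly was used here, so intervals are given by coordinates as deposited and by the repeat family that covers at least 50% of their length. For the same reason Alkbh5 itself and stem cell markers were not checked.

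Few intervals placed both mutants on one side of WT, and none passed the test of the joint difference. The 4 mutant libraries lay above both WT libraries in 1997 intervals (5.98% of those tested) and below both in 1726 (5.17%), together 3723 (11.2%). Were the 6 libraries interchangeable, the WT pair would be outermost in 2 of 15 placements, or 13.3%, which comes to 4450 intervals, 2225 in each direction. Were replicates identical and only the order of the 3 genotypes open, WT would be outermost in 66.7%. With all 6 libraries the measured share thus lay under both figures. With the 4 mutant libraries as 1 group, limma called 0 intervals at an adjusted p of 0.05 (smallest adjusted p 0.9999), with 691 at an unadjusted p under 0.05, or 2.07% of those tested. edgeR's quasi-likelihood test on whole reads called 0 as well, with 726 at an unadjusted p under 0.05. When each genotype had its own mean and the average of both mutant means was set against WT, limma called 14 separated intervals (0.042%), 9 higher and 5 lower. Separated or not, 27 intervals reached an adjusted p of 0.05 in that limma fit. That fit takes the difference between the mutants out of the spread, and the joint fit leaves it in. With fewer libraries to hold apart, more intervals met the rule. Without WT replicate 1, 6501 lay above and 4862 below (together 34%), and without WT replicate 2, 4743 and 4421 (27.5%). Without ΔcIDR replicate 1 there were 4068 and 3191 (21.8%), and without ΔcIDR replicate 2, 2937 and 2800 (17.2%). The share for interchangeable libraries rises too when 1 is left out, most for a WT library. Without ΔcIDR replicate 1 the measured share lay slightly above that raised share, and in the other 3 settings below it.

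The repeat loci gave a similar count. All 4 mutant libraries lay above both WT libraries at 12033 loci (5.74%) and below both at 11909 (5.68%), together 23942 (11.4%), beside 27939 for interchangeable libraries. limma called 0 loci in the joint fit, with 5267 at an unadjusted p under 0.05, and edgeR called 0, with 5456 at an unadjusted p under 0.05. With 1 mean per genotype, limma called 210 separated loci (0.1%), 77 higher and 133 lower, while 382 loci reached the adjusted p whether separated or not. Without WT replicate 1, 36142 loci lay above and 33016 below (together 33%), and without WT replicate 2, 32937 and 34459 (32.2%). Without ΔcIDR replicate 1 there were 22171 and 20216 (20.2%), and without ΔcIDR replicate 2, 19185 and 20550 (19%). Here too only the share without ΔcIDR replicate 1 lay slightly above that for interchangeable libraries of the same number. Among separated features, ΔcIDR differed from KO at 315 intervals (8.46%) and 1135 loci (4.74%), a share that the rule itself lowers because it asks both mutants to lie on the same side.

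The separations were narrow. In the intervals that were higher in mutants, the median difference from WT was 0.37 on the log2 scale (1.29-fold), and in the lower ones -0.577 (1.49-fold). The gap between the nearest mutant library and the nearest WT library, called the margin here, had a median of 0.0938 log2 units in the higher and 0.123 in the lower intervals. It reached 1.5-fold in 36 higher and 64 lower intervals and 2-fold in 9 and 4. For repeat loci the median differences were 0.461 and -0.486, and the margin reached 2-fold at 8 and 5 loci. The interval just inside the rule was an L1 interval at 8:77672652-77673147, with 3.25 and 3.74 RPM in WT, with KO at 3.96 and 3.82 and ΔcIDR at 4.35 and 4.29, a margin of 0.000124. Just outside lay 11:75343811-75344480, with 16.9 and 18.5 RPM in WT, with KO at 17.7 and 17.8 and ΔcIDR at 14 and 15.1, a margin of -7.45e-05.

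Separated intervals that were higher in mutants carried more reads than those that were lower, with a median of 15.3 against 3.58 RPM and 7.25 over all tested intervals. From the intervals of 1 to 2 RPM to those of 100 RPM or more, the share higher in mutants went from 4.01% to 10.7% and the share lower in mutants from 8.17% to 0.562%. One library moved with this trend more than the others: the median difference from the WT mean in ΔcIDR replicate 2 went from -0.198 to 0.279 over the same levels, and in ΔcIDR replicate 1 from -0.058 to 0.108. In KO the medians went the other way in replicate 2, from 0.085 to -0.06, and stayed between -0.052 and 0.002 in replicate 1. Without ΔcIDR replicate 2 the shares at 100 RPM or more were 11.8% higher and 2.48% lower. When every library was centred within 20 bins of level, they were 3.89% higher and 4.87% lower. Such centring evens out the libraries at each level, so a near-even split there was built in. With 1 factor per library from the ERCC RNAs, the shares were 4.03% higher and 4.4% lower. The split between higher and lower intervals at a given level thus depends on how the libraries are scaled.

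**Figure D1:**
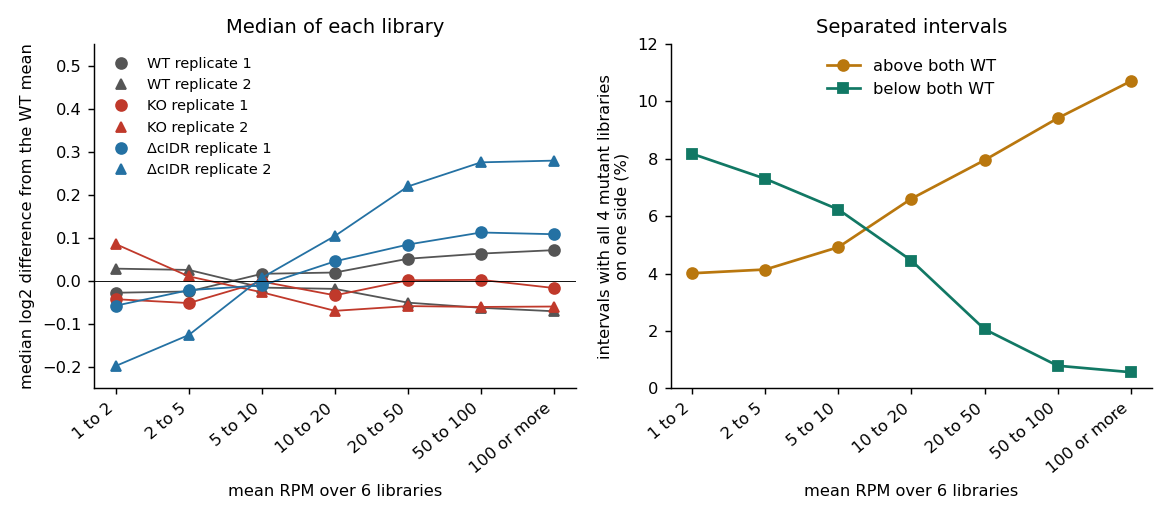
Left, the median log2 difference of each library from the WT mean over m6A intervals, by mean RPM over 6 libraries; right, the share (%) of those intervals with all 4 mutant libraries above or below both WT. The ΔcIDR replicate 2 line climbs from -0.198 to 0.279, while the share above both WT climbs from 4.01% to 10.7%.

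By repeat class, separated intervals leaned one way in ERVL and the other way in ERVK, simple and low-complexity repeats and satellites. ERVL, an endogenous retrovirus family whose elements are known for activity in the early embryo, had 99 of 1437 tested intervals above WT (6.89%) and 11 below (0.765%). ERVK, the family that holds the IAP elements, had 34 of 1156 above (2.94%) and 130 below (11.2%). Simple and low-complexity repeats had 8 of 738 above (1.08%) and 97 below (13.1%). Satellites, the tandem repeats of centromeric and other heterochromatin, had 4 of 334 above (1.2%) and 45 below (13.5%). Over all tested intervals these shares were 5.98% and 5.17%. Intervals in no repeat class, since no class covered 50% of their length, make up most of the table and had 1554 of 21195 above (7.33%) and 890 below (4.2%). Their lean turned to 697 above and 1637 below on the ERCC scale, where all tested intervals stood at 895 above and 2682 below. With libraries centred within bins of level it shrank to 1168 above and 1053 below, beside 1741 and 1863 over all. limma called 0 intervals of any of these classes in the joint fit.

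The library medians over all tested intervals of a class, separated or not, show where each genotype stood. By the rule both mutants lie beyond WT in a separated interval, so these medians do not assign a lean to 1 genotype. In ERVL the median difference from the WT mean was 0.94 and 1.009 for KO and -0.286 and 0.01 for ΔcIDR, with the WT libraries at 0.146 and -0.146. Only KO stood above WT, while 1 ΔcIDR library lay below WT and the other between the WT libraries. In ERVK the KO medians were -0.217 and -0.292, the ΔcIDR medians -0.019 and -0.071 and the WT medians 0.018 and -0.018, so all 4 mutant libraries lay below WT, ΔcIDR by little. In simple and low-complexity repeats KO stood at -0.321 and -0.294 and ΔcIDR at 0.018 and -0.355, beside WT at -0.104 and 0.104. In satellites KO stood at -0.381 and -0.335 and ΔcIDR at -0.01 and -0.29, beside WT at -0.083 and 0.083. In both of these classes ΔcIDR replicate 1 lay between the WT libraries. ERVL, ERVK, simple repeats and satellites kept the direction of their lean in level bins, with each chromosome centred on its own median, on the scale of the ERCC RNAs and without any single library. On the deposited scale, set by the m6A spike-in, ERVK turned to 33 above and 24 below, and the other 3 kept it. Over all tested intervals that scale gave 1460 above and 461 below.

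LINE-1 (L1), the autonomous non-LTR retrotransposon, had 211 of 6236 intervals above WT (3.38%) and 397 below (6.37%). Its library medians were -0.022 and 0.201 in KO and -0.037 and -0.356 in ΔcIDR, beside -0.063 and 0.063 in WT, so a ΔcIDR library lay lowest and a KO library highest. Without ΔcIDR replicate 2 the L1 count was 582 above and 469 below, and on the deposited scale it was 333 above and 170 below. MaLR, a group of non-autonomous elements related to ERVL, had 37 of 789 above and 60 below. The SINE families, short elements copied with the LINE-1 machinery, each had more below than above: B1 with 12 above and 23 below of 323, B2 with 4 and 15 of 184, and B4/ID with 5 and 8 of 102. On the deposited scale these leaned the other way, with B4/ID at 5 above and 1 below, B2 at 7 and 5, B1 at 9 and 3 and MaLR at 35 and 24. All tested intervals together also leaned above WT on that scale, with 1460 above and 461 below. ERV1 had 10 above and 16 below of 219, and DNA transposons had 0 above and 1 below of 24. Structural RNA intervals were the fewest, with 3 of 13 above and 0 below.

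**Figure D2:**
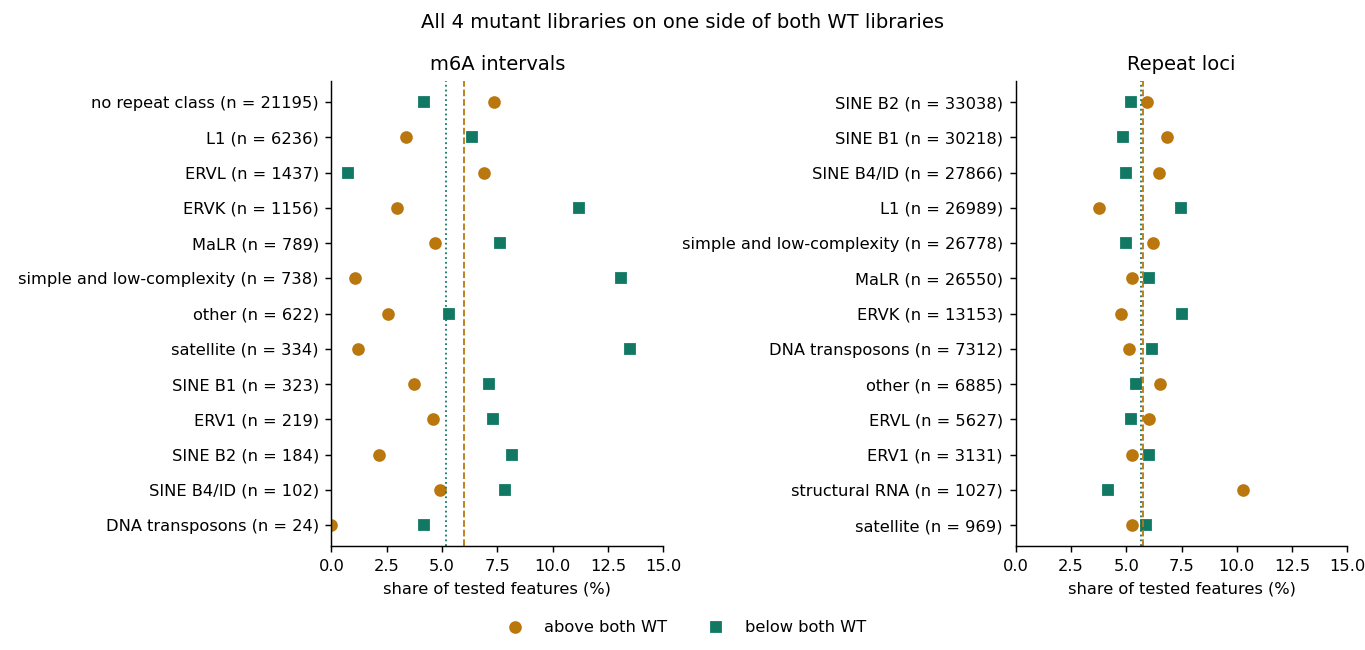
Share (%) of tested m6A intervals (left) and repeat loci (right) of each repeat class with all 4 mutant libraries above (circles) or below (squares) both WT, n being the number tested and the vertical lines the shares over the whole table. Among intervals, satellites have 13.5% below and 1.2% above, and ERVL 0.765% below and 6.89% above. Structural RNA, with 13 intervals, is left out of the left panel.

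Counted over single repeat loci, most of which lie outside the intervals, the leans of ERVL, ERVK and satellites were smaller. That of L1 was not smaller, and those of simple and low-complexity repeats and the SINE families pointed the other way. L1 had 1024 of 26989 loci above WT (3.79%) and 2013 below (7.46%), and ERVK had 626 of 13153 above (4.76%) and 990 below (7.53%). On the deposited scale both turned, L1 to 898 above and 689 below and ERVK to 409 above and 297 below. The scale shifted the whole set too: of all 209543 loci, 7767 lay above and 3442 below on the deposited scale. On the ERCC scale 4578 lay above and 20122 below. A turned count alone thus does not set a class apart from the other loci. Structural RNA loci, the genomic copies annotated as tRNA, snRNA, rRNA and related RNAs, had 106 of 1027 above (10.3%) and 43 below (4.19%). Their library medians were 0.064 and 0.014 in KO, 0.053 and 0.141 in ΔcIDR and 0.046 and -0.046 in WT, so they overlapped, and on the ERCC scale the count turned to 48 above and 100 below. B1 had 2068 of 30218 above (6.84%) and 1462 below (4.84%), the reverse of the lean of its intervals. Simple and low-complexity loci were also reversed, with 1664 of 26778 above (6.21%) and 1330 below (4.97%). So were B2, with 1963 above and 1723 below of 33038, and B4/ID, with 1808 and 1385 of 27866. On the ERCC scale all of these classes had more loci below than above, B1 with 775 above and 2539 below. ERVL loci showed 339 of 5627 above (6.02%) and 293 below (5.21%), and satellites 51 of 969 above (5.26%) and 57 below (5.88%), beside 5.74% and 5.68% over all loci. ERVL turned to 99 above and 513 below on the ERCC scale, and satellites to 40 above and 14 below on the deposited scale.

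Reads summed over whole repeat families placed 6 of 52 tested families (11.5%) on one side of WT, 5 higher and 1 lower. Interchangeable libraries would place 6.9, so the count was no larger than that. In the joint fit limma called 0, with 1, LTR/Gypsy, at an unadjusted p under 0.05. LTR/Gypsy, remnants of an ancient retrotransposon group, held 237.1 and 224 RPM in WT, beside 268.6 and 267.8 (KO) and 242.6 and 257.4 (ΔcIDR). Its difference was 0.181 ± 0.068 (SE) on the log2 scale (limma, adjusted p = 0.973). DNA/PIF-Harbinger, a DNA transposon family, was lower, with 11.09 and 10.66 RPM in WT, with KO at 10.28 and 9.47 and ΔcIDR at 9.416 and 8.677 (-0.19 ± 0.084; limma, adjusted p = 0.973). tRNA copies held 825.8 and 792.5 RPM in WT, with KO at 931.8 and 871.9 and ΔcIDR at 814.1 and 901.3 (0.132 ± 0.064; limma, adjusted p = 0.973). The plain tRNA values of ΔcIDR replicate 1 and WT replicate 1 overlap, and the order given by the rule appears only after centring. L1-Tx1, rRNA copies and SINE/Alu were the other families placed above WT. SINE/Alu too was placed there only by centring, with 119500 and 118700 RPM in WT and 118000 in ΔcIDR replicate 1 (difference 0.03). In L1-Tx1 the mutants were unlike, with KO at 0.072 and ΔcIDR at 0.425 log2 units over the WT mean. A single locus held 98.8% of the rRNA family's reads and another held 73.3% of those of L1-Tx1.

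Separated repeat loci often lay in runs. In the densest of the 19 runs described here, which was lower in mutants, nearly every tested locus was separated. A run was a chain of separated loci of 1 direction with the next within 50 kb, and values are RPM summed over all tested loci of the region. At X:106341232-106428985, 21 of 22 tested loci were separated, 16 of them L1. The sum was 103.7 and 95.27 RPM in WT, beside 37.96 and 41.44 (KO) and 47.89 and 45.92 (ΔcIDR). Both mutants thus held less than the WT libraries by a similar amount, 0.399 of the WT mean in KO and 0.472 in ΔcIDR. limma with 1 mean per genotype called 14 of its loci (smallest adjusted p 0.001), and none passed in the joint fit. Among the m6A intervals, 2 of 3 tested ones of the region were below WT as well. Both tables come from the same libraries, so the second is no separate measurement.

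On chromosome 18, 62 of 77 loci at 50785016-50989774 were separated, with L1 again the main class. The region held 406.4 and 415.6 RPM in WT, with KO at 267.1 and 277.3 and ΔcIDR at 121.6 and 120.6. ΔcIDR lay at 0.295 of the WT mean and KO at 0.662, so the mutants were on the same side of WT without overlapping each other. limma with 1 mean per genotype called 29 of these loci (smallest adjusted p 1.4e-05). Of 11 tested intervals there, 9 were below WT. A smaller run at 17:40661377-40805838, with 13 of 20 loci, held 45.51 and 51.13 RPM in WT, with KO at 23.57 and 31.11 and ΔcIDR at 27.53 and 20.95.

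The other runs of lower loci held more reads and smaller differences. At 19:5875703-5891936, 21 of 26 loci within 16.2 kb were separated, with 536.2 and 549.9 RPM in WT, beside 356.1 and 359.4 (KO) and 372.1 and 331.4 (ΔcIDR). The ratio to WT was 0.659 in KO and 0.648 in ΔcIDR, close to each other. At 10:60733192-60899002, 99 of 151 loci were separated, with 1014 and 1092 RPM in WT, with KO at 739.9 and 784.1 and ΔcIDR at 716.9 and 677.8, and 6 of 7 intervals lay below WT too. At 12:109506907-109713477, 60 of 110 loci were separated, 29 of them simple or low-complexity repeats. This region held 1258 and 1220 RPM in WT, with KO at 839.9 and 879.4 and ΔcIDR at 978.3 and 1031, so here KO was the lower of the mutants. The run with most members, 103 of 318 loci at 1:178783064-179340738, held 1464 RPM in each WT library, 1197 and 1196 in KO and 1215 and 1202 in ΔcIDR. Its mutant libraries stood at 0.821 of the WT mean and differed little among themselves. Runs at 3:152925072-153408124 (53 of 251 loci, 0.889 of the WT mean) and 7:106843148-107125392 (50 of 173, 0.806) were smaller in difference.

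Of the runs of loci above WT, 10 were examined, the 6 with most members and the 4 with the largest median margin among those of at least 10 loci. KO was the higher mutant in 7 of them and ΔcIDR in 3. At 11:23206043-23667970, 72 of 304 loci were separated, and the sum was 1001 and 945 RPM in WT, beside 1472 and 1429 (KO) and 1023 and 1071 (ΔcIDR). KO stood at 1.49 times the WT mean and ΔcIDR at 1.08. At 11:19876364-20088751, with 47 of 173 loci, WT held 463.2 and 458.1 RPM, KO 843.3 and 829.3 and ΔcIDR 485.2 and 495. KO was 1.82 times WT there and ΔcIDR 1.06. The run at 2:20528859-20811442 (45 of 279 loci) showed that separation of loci need not carry to the region, since its summed ΔcIDR values of 1713 and 1631 RPM lay on either side of the WT values of 1662 and 1686, beside 2127 and 2128 in KO.

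In 2 of the runs ΔcIDR was the higher mutant by a clear gap. At 9:64295552-64459943, with 15 of 51 loci, WT held 78.74 and 74.64 RPM, KO 94.15 and 91.61 and ΔcIDR 113.6 and 120.3. At 3:88462229-88534803, with 12 of 46 loci, WT held 146.8 and 164.3 RPM, KO 165.3 and 168.5 and ΔcIDR 213.1 and 200.9. The other runs above WT lay at 6:72569450-72865259 (1.14 times the WT mean over the 4 mutant libraries), 1:118771632-118972686 (1.18 times), 2:29517577-29873179 (1.1 times), and 6:90762853-90965476 (1.32 times). At 2:20878382-20974273 KO held 1.94 times the WT mean and ΔcIDR 1.05 times, with a ΔcIDR library at 105.4 RPM between the WT sums of 111 and 102.5. Runs of at least 5 loci numbered 670 above and 661 below WT, and neighbouring loci can share 1 transcript, so they are no separate evidence of a difference.

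**Figure D3:**
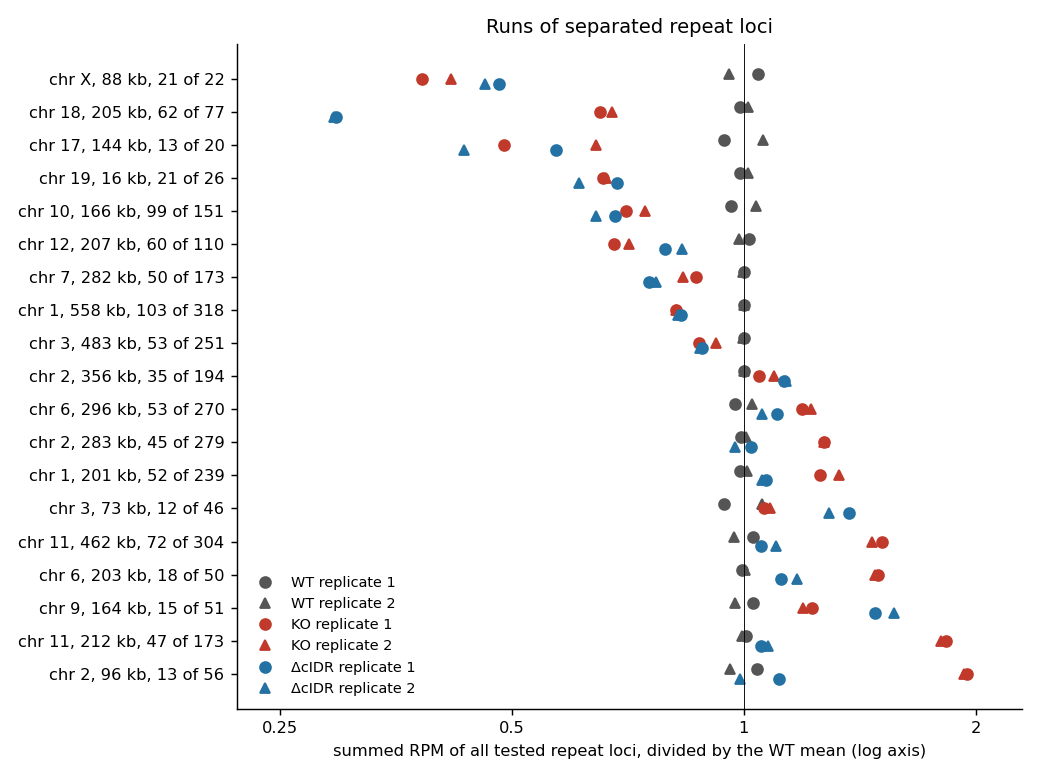
RPM summed over all tested repeat loci of 19 runs, divided by the WT mean (log axis), for each library; labels give the chromosome, the length and the separated loci of those tested. At the top, the runs lower in mutants have all 4 mutant libraries left of WT, down to 0.295 of the WT mean for ΔcIDR on chromosome 18. Lower down, in several runs above WT the KO libraries lie far to the right and the ΔcIDR libraries near WT.

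Among intervals the runs were shorter. A run of 6 of 8 intervals above WT at 9:58104512-58169721 held 523.3 and 533.2 RPM in WT, with KO at 779.8 and 791.9 and ΔcIDR at 578.4 and 614.3. At 2:27338203-27365479 all 5 tested intervals lay above WT, with 304.6 and 368.4 RPM in WT, with KO at 457.9 and 439.3 and ΔcIDR at 417.7 and 368.7, where the sums of WT replicate 2 and ΔcIDR replicate 2 hardly differ. Below WT, 6 of 9 intervals at 10:18445039-18522796, 3 of them ERVK, held 224.2 and 215.3 RPM in WT, beside 169.2 and 166.4 (KO) and 165.6 and 167.2 (ΔcIDR). Here the mutants were close to each other, with KO at 0.764 and ΔcIDR at 0.757 of the WT mean. At 11:69311686-69406810, 6 of 7 intervals were separated, with 75.11 and 94.8 RPM in WT, with KO at 43.12 and 46.36 and ΔcIDR at 60.86 and 53.94. The run at 13:97593466-97645867 held 8 of 15, with 1567 and 1614 RPM in WT, with KO at 1246 and 1214 and ΔcIDR at 1423 and 1400.

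Since no interval passed the joint test, the intervals named next were chosen after their values were seen, as those with the widest margins, those called with 1 mean per genotype and those with the most reads. The widest margin, 1.88 log2 units, was at an ERVK interval at 15:34228906-34229159. It held 0.227 and 0.374 RPM in WT (3 and 5 reads), 1.64 and 2.28 in KO and 5.8 and 5.68 in ΔcIDR. ΔcIDR was the higher mutant, and no library of either overlapped WT (3.18 ± 0.35 SE, adjusted p = 0.013 by limma with 1 mean per genotype). Other ERVK intervals with wide margins were at 15:6724262-6724724, from 0.378 and 0.299 RPM in WT to 1.16, 1.25, 1.59 and 2.18 in the mutants, at 11:83120112-83120347, from 0.604 and 0.747 to 2.25, 2.13, 1.73 and 3.17, and at 14:62816323-62816527, from 0.453 and 0.598 to 1.64, 1.69, 1.38 and 1.19. All 3 have few reads in WT, from 4 to 10. These ERVK intervals lay above WT although the ERVK class leaned below it.

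An interval at 9:22083525-22083748, covered by a repeat outside the named classes, was the only one higher in mutants whose genotype means passed limma (adjusted p = 0.0285) without a called difference between the mutants. It held 1.66 and 4.86 RPM in WT, beside 13.1 and 13.5 (KO) and 12.5 and 11.6 (ΔcIDR). The WT libraries differed more from each other than the mutants did among themselves, and both lay far below them (2.16 ± 0.36 SE in the joint fit). An ERV1 interval at 9:57385751-57386029 went from 0.756 and 0.971 RPM in WT to 2.87 and 3.01 in KO and 3.17 and 2.11 in ΔcIDR. An ERVK interval at 7:40782030-40782324 had 0 reads in both WT libraries, 53 and 32 in KO and 2 in each ΔcIDR library, so it rests on KO and no fold is given.

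Below WT, the widest margin was at an L1 interval of the X chromosome run. At X:106393800-106394058 the values were 4.53 and 3.36 RPM in WT, with KO at 0.614 and 1.32 and ΔcIDR at 1.04 and 0.792, a difference of -1.94 ± 0.43 (SE) in the joint fit. Another L1 interval nearby, X:106392955-106393382, held 7.18 and 6.2 RPM in WT, with KO at 2.05 and 3.09 and ΔcIDR at 1.59 and 1.39. A simple repeat interval at 12:86224429-86224813 held 2.57 and 1.79 RPM in WT, beside 0.546 and 0.735 (KO) and 0.414 and 0.396 (ΔcIDR). In the first of these the mutants overlapped each other, in the other two ΔcIDR lay lowest, and every mutant library held less than WT. An interval with more reads, 8:62136384-62136699, with repeats over 48.6% of its length and thus in no class, held 7.1 and 8.89 RPM in WT, with KO at 3.41 and 3.97 and ΔcIDR at 2.97 and 2.77.

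The interval with most reads among the 14 called with 1 mean per genotype was lower in both mutants. It lies at 11:60429073-60429484 in no repeat class and held 141 and 132 RPM in WT, with KO at 74.2 and 78.3 and ΔcIDR at 77.1 and 80.7. The difference between ΔcIDR and KO did not pass the test (ΔcIDR minus KO 0.26; limma, adjusted p = 0.174), and the mean of both mutants differed from WT by -0.76 ± 0.12 (SE), with an adjusted p of 0.0398 from limma with 1 mean per genotype. In 8 of the 9 higher and 4 of the 5 lower intervals of that set, KO and ΔcIDR differed from each other as well. An example is 1:119344319-119345853, with 31.2 and 28.7 RPM in WT, beside 99.7 and 101 (KO) and 35 and 39.6 (ΔcIDR). The ERVL interval at 7:10758412-10760482 held 5.52 and 5.6 RPM in WT, with KO at 24 and 24 and ΔcIDR at 5.31 and 6.27. There ΔcIDR was level with WT and counted as separated only by the centring. At 7:79137018-79137222, an ERVK interval, WT held 80.9 and 77.5 RPM, KO 28.3 and 30.3 and ΔcIDR 63.4 and 59.3.

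**Figure D4:**
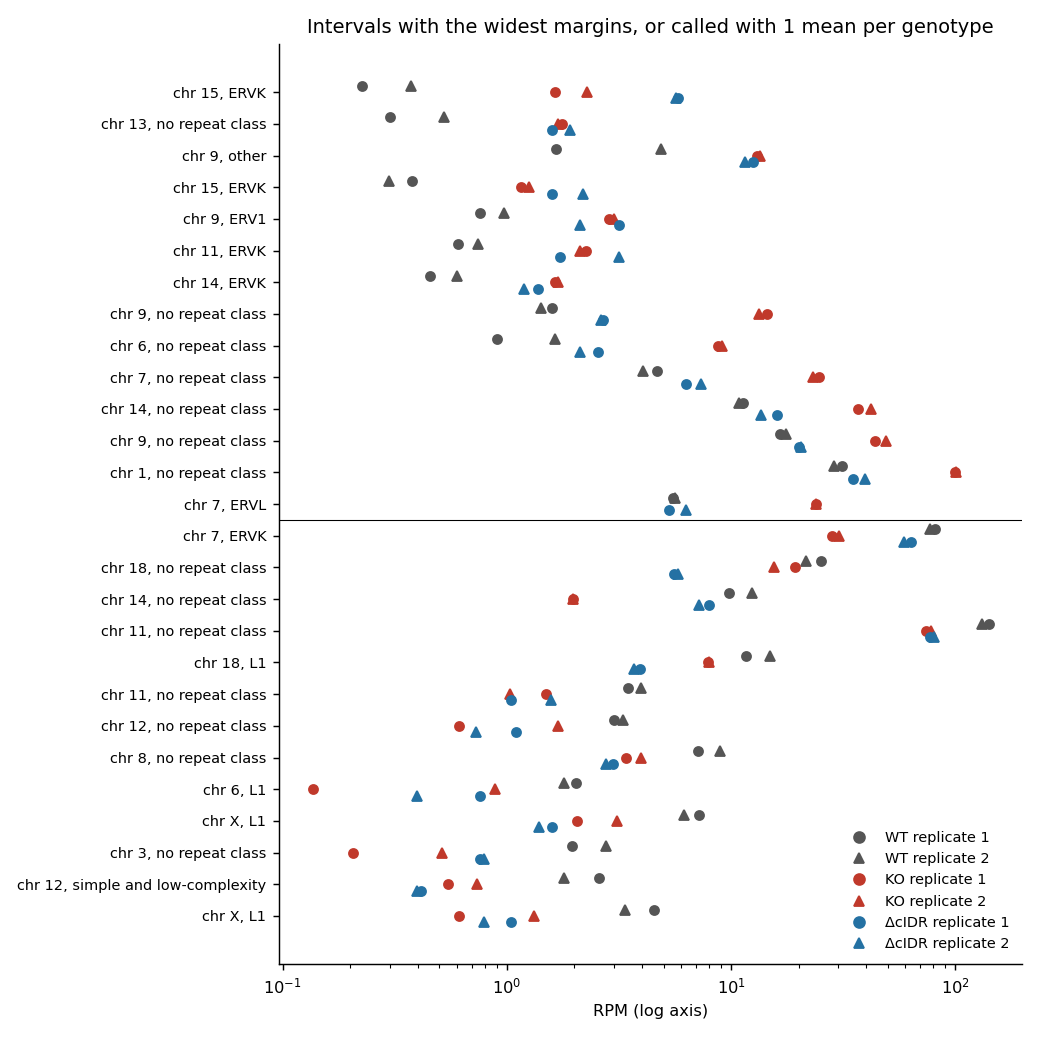
RPM of each library (log axis, before centring) at 27 separated intervals with the widest margins or called with 1 mean per genotype, labelled by chromosome and repeat class; the 14 above the line are higher in mutants and the 13 below it lower. In the ERVK interval of chromosome 15 at the top, WT lies at 0.227 and 0.374 RPM and ΔcIDR at 5.8 and 5.68. In many others KO and ΔcIDR lie apart.

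Where reads were most abundant, separated intervals differed little. The separated interval with the most reads lies at 17:40154057-40154260, with 12600 and 13000 RPM in WT, with KO at 11800 and 13000 and ΔcIDR at 11700 and 10700, values that overlap before centring. At 19:5893247-5894259, close to the chromosome 19 run, WT held 887 and 923 RPM, KO 730 and 752 and ΔcIDR 685 and 664 (-0.31 ± 0.13 SE). At 12:109542230-109543370, inside the chromosome 12 run, WT held 254 and 264 RPM, KO 218 and 222 and ΔcIDR 193 and 178 (-0.31 ± 0.14 SE). In both, every mutant library lay below WT on the plain RPM scale too. At 19:47608070-47609072 KO and WT overlapped before centring, with WT at 312 and 326 RPM, KO at 312 and 314 and ΔcIDR at 283 and 269. Of those above WT, 4:98624639-98626202 held 484 and 509 RPM in WT, beside 707 and 671 (KO) and 529 and 487 (ΔcIDR), where ΔcIDR replicate 2 and WT overlap before centring. A structural RNA interval at 1:72276001-72276220 was higher in every mutant library, with 108 and 106 RPM in WT, with KO at 136 and 146 and ΔcIDR at 157 and 192 (0.6 ± 0.13 SE, adjusted p = 0.0901 by limma with 1 mean per genotype).

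Repeat loci that touch no interval gave further named cases. An ERVK locus at 17:28762193-28762910 held 3.2 and 2.84 RPM in WT, with KO at 5.86 and 6.38 and ΔcIDR at 6.55 and 6.74 (1.07 ± 0.18 SE, adjusted p = 0.00525 by limma with 1 mean per genotype). Both mutants were higher to a similar extent. An ERVL locus at 7:110887515-110887796 was lower, with 3.42 and 3.48 RPM in WT, beside 0.876 and 0.429 (KO) and 1.29 and 1.34 (ΔcIDR) (limma with 1 mean per genotype, adjusted p = 0.00413). In the X chromosome run, the L1 locus at X:106345340-106346261 held 11.6 and 10.7 RPM in WT, with KO at 5.03 and 5.4 and ΔcIDR at 5.4 and 5.08 (adjusted p = 0.00237 in the same limma fit). A simple repeat of chromosome 17 at 40262405-40262440 had the widest margin of all loci but only 1 read in each WT library, and its mutant values of 29.9, 0.471, 5.5 and 8.68 RPM were far apart from each other.

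Chromosomes differed in where the mutants lay, beside shares of 5.98% above and 5.17% below over all tested intervals. Chromosome 11 had 175 of 2117 tested intervals above WT (8.27%) and 85 below (4.02%), and chromosome 6 had 135 of 1712 above (7.89%) and 82 below (4.79%). Chromosomes 7 (7.45% above, 4.04% below) and 19 (7.16% above, 5.45% below) came next in the share above. On chromosome 6 the median difference from WT was 0.282 and 0.296 in KO and -0.096 and -0.053 in ΔcIDR, beside 0.022 and -0.022 in WT, so the mutants stood on opposite sides of WT. Chromosome 8 was alike, with 0.236 and 0.201 in KO and -0.127 and -0.06 in ΔcIDR, and it had 91 of 1810 intervals above (5.03%) and 76 below (4.2%). With each chromosome centred on its own median, 2021 intervals lay above and 1804 below WT in all. Chromosome 18 had 38 of 1018 above (3.73%) and 63 below (6.19%), and chromosome 13 had 60 of 1532 above (3.92%) and 85 below (5.55%).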

How the data were processed

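RNA of the chromatin-associated fraction was depleted of ribosomal RNA, given an m6A spike-in, fragmented and immunoprecipitated with an m6A antibody, per the labels' protocols. Reads were processed with HISAT2, featureCounts, MACS2, fastp, Picard, SAMtools and bedtools on GRCm39, per the submitters' processing notes, which give no versions or roles. Pooling of replicates for the intervals is not given in the sources used here. The deposited tables hold a read signal for 6 libraries, which as deposited is whole reads times 1 factor per library, with the m6A spike-in equal in all (100% of values gave whole reads within 1e-06). The design had foreseen CPM; RPM was rebuilt from the reads. The tables are titled as normalized m6A values, which is why their columns were taken as immunoprecipitated; genotypes came from column names, KI by elimination. Spike-in and ERCC features were dropped.

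The log2 of RPM plus 0.1, centred on each library's median, was fitted with limma 3.58.1 (trend) in R 4.3.3 for features with a mean of at least 1 RPM, with the 4 mutant libraries as 1 group against 2 WT. A call needed a Benjamini-Hochberg adjusted p of 0.05 and separation, and low features have their folds understated by the pseudocount. edgeR 4.0.16 (TMM, quasi-likelihood) was run on whole reads. Families needed a mean of 100 reads. Intervals were given a repeat class at 50% coverage with bedtools 2.31.1. The fits were tested on simulated data in which both mutants had the same fold. That test thus does not show how the joint fit performs where the mutants differ. Alternatives were the pseudocount, the filter, the scale, chromosome centring, 1 mean per genotype, a replicate block, 5 kb merging and leaving out each library; level bins and the ERCC scale were added after seeing the data. By the naming rule, called intervals, loci and runs were to be named, or, with none called, the 3 families with the smallest p. None was called, so the widest margins, the most reads, runs with most members, and runs of at least 10 members with the largest median margin were named instead. Members and lists were chosen with earlier results of these data known. Python 3.11.15, pandas 2.3.3, numpy 2.4.6 and matplotlib 3.10.9 handled tables and figures.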

Additional observations from a re-analysis of the deposited data

Results flagged for a closer look

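Among the 14 intervals called with 1 mean per genotype, 12 were separated from WT in the same direction while the mutants also differed from each other (limma, ΔcIDR against KO). ΔcIDR was above KO, on the log2 scale, at 15:34228906-34229159 by 1.73, at 14:19962056-19962570 by 2.09 and at 7:79137018-79137222 by 1.27. ΔcIDR minus KO was negative at the other 9: -2.13 at 9:64855080-64855468, -1.83 at 7:10758412-10760482, -1.69 at 6:136306535-136306918, -1.6 at 7:104417521-104418107 and -1.37 at 18:50977047-50977252. It was -1.22 at 1:119344319-119345853, -1.2 at 14:64824845-64825244, -0.98 at 9:78349752-78350441 and -0.84 at 18:50932061-50932261. At 9:64855080-64855468 WT held 1.59 and 1.42 RPM, KO 14.5 and 13.3 and ΔcIDR 2.69 and 2.64, so ΔcIDR lay above WT but much nearer to it than to KO. At 14:19962056-19962570 the order was the reverse of that in the chromosome 18 run, with 9.82 and 12.4 RPM in WT, 1.98 in each KO library and 8 and 7.2 in ΔcIDR.

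In 3 named features a single mutant library stood apart from the other mutants by Dixon's test. At the satellite interval 11:50723350-50723579, ΔcIDR replicate 1 was the lowest at 0.86 log2 units over the WT mean. At the SINE B2 interval 12:112596369-112596569, KO replicate 1 was the highest at 1.05, and at the SINE B2 locus 5:23951812-23952011 KO replicate 1 was the highest at 1.65. Chance gives such a result in about 1 of 20 groups, and 3.45% of all tested intervals passed the same limit.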

How the results depend on the processing

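In the joint fit limma called 0 features under most settings. The exceptions were the fit with 1 mean per genotype (14 intervals, 210 loci), at least 1 read in place of the filter (32 loci), and the deposited scale (1 locus). Leaving out 1 library gave 0 to 1 called intervals and 0 to 1 called loci. The interval, 15:102353185-102353390 (SINE B1), was called without ΔcIDR replicate 2 (adjusted p = 0.0463, limma), with 1.21 and 1.27 RPM in WT, with KO at 14.1 and 21.4 and ΔcIDR at 14.1 and 1.25. The locus, at 17:40262405-40262440, was called on the deposited scale and without KO replicate 2. Replicate numbers did not pair the samples (r of same-numbered deviations from -0.327 to 0.0757 for intervals), and with the replicate block limma called 0 intervals, 0 loci and 0 families, with 332, 3235 and 0 at an unadjusted p under 0.05.

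Counts above and below WT depended on filter and scale. With a mean of 5 RPM, 671 intervals lay below WT, and 2107 loci above and 1213 below. With at least 1 read, intervals numbered 4665 above and 4324 below, loci 98015 and 92053. Without centring, 1235 intervals lay above. On the deposited scale 1460 intervals (76% of those separated) lay above and 461 below, with 7767 loci above and 3442 below and 0 families. On the ERCC scale 895 intervals (25%) lay above and 2682 below, with 4578 loci above and 20122 below. As reported, 53.6% of separated intervals lay above, with edgeR's TMM scaling 46.2% (1731 above, 2015 below), without centring 33.6%, and at 5 RPM 68.2%. Leaving out 1 library, which leaves fewer placements to meet, gave 2455 to 6501 intervals above and 2206 to 4862 below, 15914 to 36142 loci above and 16402 to 34459 below, and 6 to 16 families. The lowest interval counts came without KO replicate 1 and the highest without WT replicate 1. The 0.5 pseudocount, chromosome centring, level bins and 5 kb merging kept interval counts within 1.5 times. No named feature changed direction under any setting run. For leaving out 1 library, the replicate block and 1 mean per genotype this was fixed in advance, since the features were picked as separated. Of medians of classes and chromosomes, 72 of 302 moved by more than the spread between replicates.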
